A study of Caenorhabditis elegans with 4 samples.

Results

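The genes described here code for subunits of ligand-gated ion channels in C. elegans: the acetylcholine receptors of nerve and muscle and their relatives named lgc (ligand-gated channel). They were chosen by name from the deposited gene table as every gene called acr or lgc with a number, together with unc-29, unc-38, unc-63, lev-1, lev-8, eat-2, deg-3 and des-2, which gave 82 of 19912 genes. Of these, 53 are named lgc, 21 are named acr and 8 entered by their own name. RNA was taken from whole adults of the N2 wild type strain (var. Bristol), 48 h after the L4 stage. The arsenite group was kept on agar with 100 nM arsenite and the control group on agar with water (0 nM) for 48 h, both on heat-inactivated OP50 bacteria, with 2 libraries a group. Whether the replicates were separate cultures is not given in the sources read. The p-values therefore reflect the variation among these 4 libraries alone, which may be technical.

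The proteins belong to the Cys-loop family of channels, in which several subunits form a pore that opens when a transmitter binds at the outer face. In C. elegans, acetylcholine released by motor neurons contracts body wall muscle through such receptors. One type is activated by the anthelmintic levamisole and another by nicotine. Other members sit on neurons or on the pharynx, the muscular feeding pump, and many lgc genes code for channels with another ligand or none assigned here. Whole-worm RNA mixes all tissues, so fewer cells of a type and less RNA per cell cannot be told apart in any value below.

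The libraries held 31834460 and 35218389 reads with arsenite and 33374810 and 30583832 reads without it, as derived from the deposited counts and RPKM values. RPKM is the read count divided by transcript length in kilobases and by library depth, the scale used here to compare levels between genes. Normalized counts are read counts scaled to a common library size and are used to compare one gene between libraries. The 82 genes took 0.0155% to 0.0188% of all gene counts, and 76 to 78 of them had at least 1 read in a given library. Of the 82 genes, 61 passed a filter on low counts (edgeR's default) and were tested among 13776 genes. The remaining 21, which had at most 17 reads in any library, were not tested.

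Levels of these genes were low as a class. The median of the mean RPKM was 0.659 for the 82 genes, against 2.89 over all genes in the table. In 48 of the 82 genes the mean was under 1 RPKM, and 4 genes reached 5 RPKM or more, all of them named lgc. The highest was lgc-22, whose mean was 19.5 RPKM and whose 4 libraries ran from 17.5 RPKM (arsenite replicate 2) to 21.5 RPKM (control replicate 2). It was followed by lgc-27 with 12.9 and 12.2 RPKM with arsenite, against 15.3 and 14.3 RPKM without it. The range over libraries of lgc-22 lay above that of lgc-27, and that of lgc-27 above both lgc-54 (6.34 to 9.27 RPKM) and lgc-34 (5.88 to 8.43 RPKM), which overlapped each other. The fifth, unc-63, had a mean of 3.97 RPKM and overlapped the next genes in the order. Exons of lgc-27 and of lgc-54 overlap those of genes on the opposite strand, which the libraries do not separate. At the low end lgc-16 had 0 reads in each library, which allows up to 3 reads per library (counting error only).

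**Figure D1:**
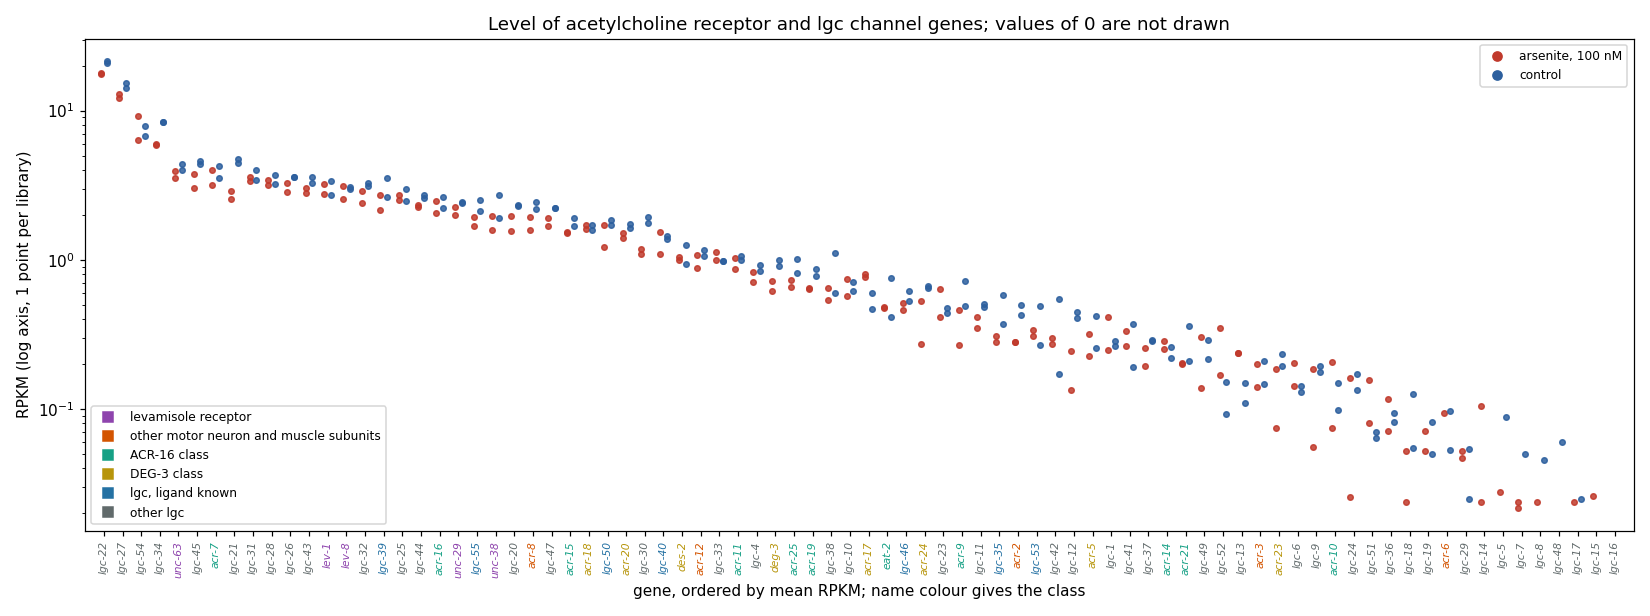
RPKM (log axis) of each gene in each library, with genes ordered by mean RPKM, arsenite libraries in red and control libraries in blue, and gene names coloured by class. The 5 subunits of the levamisole receptor sit close together, with means from 2.05 to 3.97 RPKM, and values of 0 are not drawn.

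Levels are given here by class of subunit, and differences between classes were not tested. The 5 subunits of the levamisole receptor had mean levels from 2.05 RPKM (unc-38) to 3.97 RPKM (unc-63). The 5 other subunits of motor neuron and muscle acetylcholine receptors ran from 0.0608 to 2.04 RPKM, with a median of 0.370 RPKM. Genes of the ACR-16 class, named after the nicotine-sensitive receptor of muscle, ran from 0.132 RPKM (acr-10) to 3.73 RPKM (acr-7), with a median of 0.732 RPKM. Exons of acr-7 overlap those of T09A5.4 and klp-3 on the opposite strand, which the libraries do not separate. The DEG-3 class, whose founding pair of subunits acts in sensory neurons, had a median of 0.733 RPKM and a maximum of 1.65 RPKM (acr-18). The 7 lgc channels listed here for a ligand known from studies of C. elegans had a median of 1.36 RPKM. The other 46 lgc genes, which were not sorted by ligand and may include channels with a known one, had a median of 0.315 RPKM. These 46 held both ends of the range.

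Position on the chromosomes was a feature that the choice by name did not use. Of the 82 genes, 24 (29.3%) lie on X, while X carries 13.7% of the 18944 genes of the table that could be placed by RefSeq on WBcel235. On that build 22 of the 82 lie within 20000 nt of another gene of the set. Most such groups are pairs, and the exception is a row of 6 genes, lgc-13 to lgc-18, on the plus strand of X between 12109166 and 12128000. These 6 genes had between 0 and 10 reads in every library and none was tested. Genes of partner subunits are neighbours on one strand in acr-2 and acr-3, with a gap of 229 nt on X, and in deg-3 and des-2, with a gap of 112 nt on V.

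With arsenite, most of the tested genes had a slightly lower fitted level, and few passed a test. The fitted log2 fold change (arsenite over control) was below 0 in 51 of the 61 tested genes, against 48.2% of all genes tested. Its median was -0.19 over the 61 genes, against 0.0055 over all genes tested. At an adjusted p under 0.05 edgeR's quasi-likelihood test, adjusted over all 13776 genes, called 0 of the 61 genes, and 0% of all genes in either direction. At an unadjusted p under 0.05 it passed 7 genes lower with arsenite, against 5.05% of all genes tested in that direction (11.5% of the 61), and 1 gene higher, against 2.16%. The 1 higher gene became 0 without arsenite replicate 2 or control replicate 2, and 3 without arsenite replicate 1. Without arsenite replicate 1, which leaves 1 arsenite library, the log2 fold change of lgc-21 was -0.78.

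Other tests called a few genes. The edgeR exact test called 2 genes lower at an adjusted p under 0.05, against 0.617% of all genes tested, and 0 higher, against 0.392%. At an unadjusted p under 0.05 it passed 10 lower, against 5.28%, and 1 higher, against 2.3%. The likelihood ratio test of edgeR called 2 lower, against 0.719%, and 0 higher, against 0.421%, with 14 lower (5.64%) and 1 higher (2.42%) unadjusted. DESeq2 called 0 lower, against 0.0805% of all genes in its fit, and 0 higher, against 0.0483%, with 3 lower (1.51%) and 0 higher (0.907%) unadjusted. It gave no adjusted p to 48 of the 81 genes of the set in its fit. When 1 library was left out the exact test called 1 gene lower, and 0 without arsenite replicate 2.

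**Figure D2:**
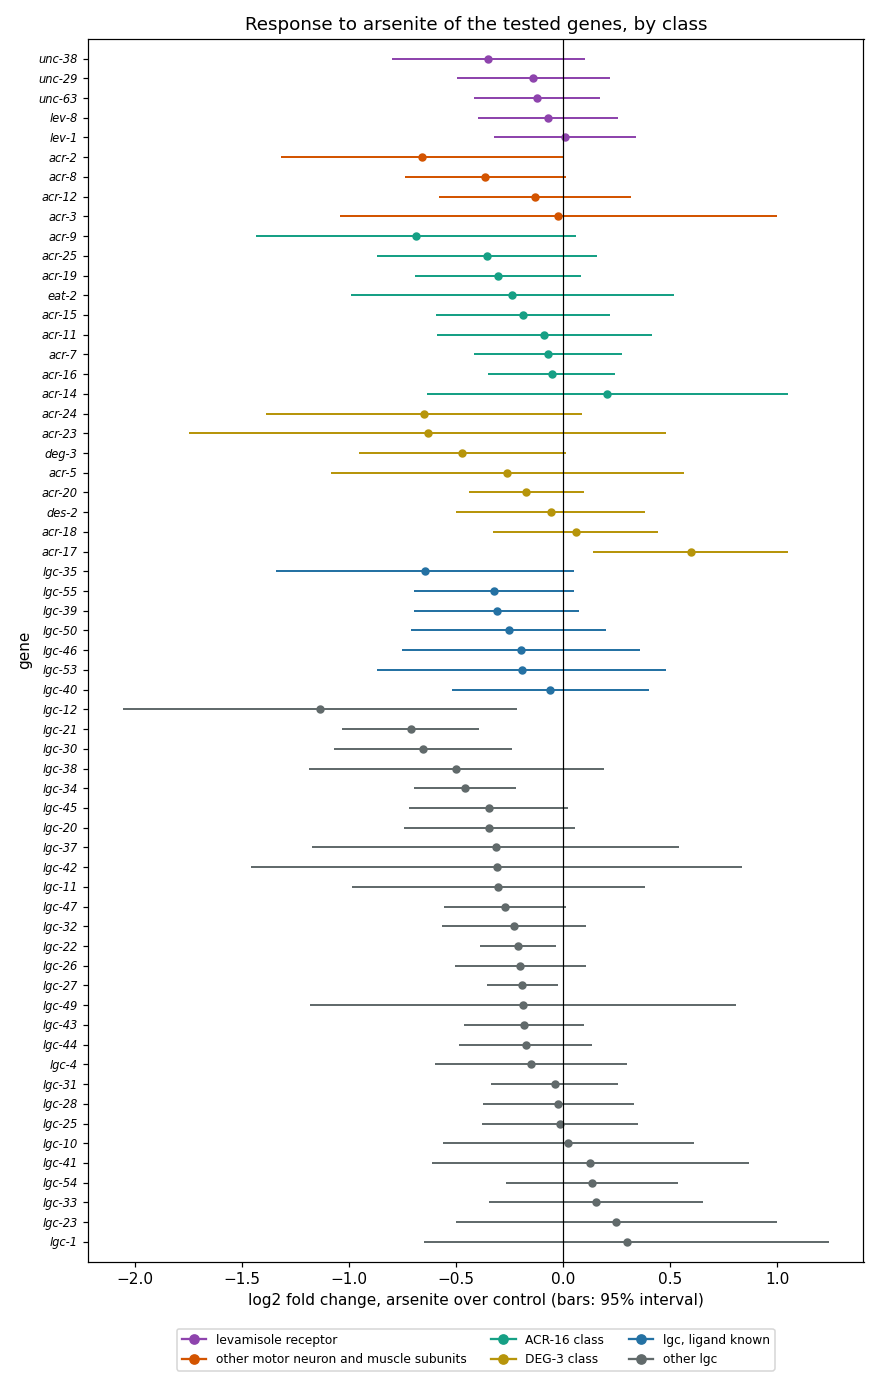
Log2 fold change (arsenite over control) of the 61 tested genes, ordered within class, with 95% intervals from edgeR's quasi-likelihood fit. The interval lies below 0 for 7 genes and above 0 for 1 gene, acr-17, and spans 0 for the other 53. An interval off 0 is the same as an unadjusted p under 0.05 in that fit. Of all genes tested, 5.05% were lower and 2.16% higher at that p.

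The normalized counts of all 82 genes summed to 7419 and 7463 in arsenite replicates 1 and 2, against 8536 and 8389 in control replicates 1 and 2, so that the groups did not overlap in this sum. Gene by gene, both arsenite libraries lay below both controls in 27 of the 61 tested genes (44.3%), against 19.1% of all genes tested, and above both in 2, against 17.1%. Against the control mean, arsenite replicate 1 had a median log2 ratio of -0.21 over the tested genes and arsenite replicate 2 one of -0.18, with medians of 0.0403 between the arsenite libraries and -0.0338 between the controls, each as replicate 2 minus replicate 1. Without control replicate 1 the median log2 fold change was -0.16, and without control replicate 2 it was -0.23. With a correction for transcript length it was -0.15, where all genes tested had 0.0376.

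**Figure D3:**
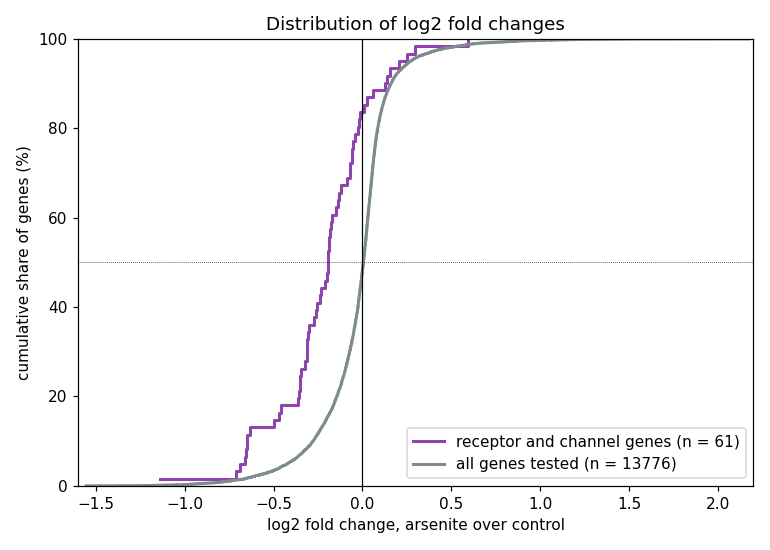
Cumulative share of genes (%) against log2 fold change (arsenite over control) for the 61 tested receptor and channel genes and for all 13776 genes tested. The curve of the receptor and channel genes crosses 50% at -0.19, left of that of all genes at 0.0055, and 83.6% of them lie below 0, against 48.2% of all genes.

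The clearest single differences were in lgc-21 and lgc-34, a pair of channel genes for which no ligand is given here. The gene lgc-21 lies on X of WBcel235 from 14064313 to 14067984. Its normalized counts were 116.6 and 106.0 in arsenite replicates 1 and 2, against 185.0 and 179.6 in control replicates 1 and 2. The groups stood apart, with means of 111.3 ± 7.46 with arsenite and 182.3 ± 3.83 without it (SD, n = 2 each). The log2 fold change was -0.71 (standard error, SE, 0.14, 95% interval -1.03 to -0.40). Its adjusted p was 0.00231 in the exact test and 0.233 in the quasi-likelihood test of edgeR, where the unadjusted p was 0.000535. In the exact test lgc-21 was called lower with each library left out except arsenite replicate 2, without which its adjusted p was 0.455 in that test at a log2 fold change of -0.64.

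The gene lgc-34 lies on II from 526574 to 530374. Its normalized counts were 268.3 and 269.4 with arsenite, against 365.2 and 374.1 without it. The groups stood apart, with means of 268.9 ± 0.796 with arsenite and 369.7 ± 6.29 without it (SD, n = 2 each). An SD from 2 libraries is a poor measure of spread, so the small values here do not show that the spread is small. The log2 fold change was -0.46 (SE 0.11, 95% interval -0.69 to -0.22). Its adjusted p was 0.0201 in the exact test and 0.28 in the quasi-likelihood test of edgeR, where the unadjusted p was 0.00146. Leaving out any 1 library ended the call in the exact test, with adjusted p from 0.0797 without control replicate 1 to 0.781 without arsenite replicate 2, while the log2 fold change stayed between -0.48 and -0.44. After the correction for transcript length both genes passed the likelihood ratio test, with an adjusted p of 0.00237 for lgc-21 and 0.0426 for lgc-34. That alternative was not among those planned in advance, and its share of all genes is not given here. With the same correction the quasi-likelihood test called neither gene, and 0 of all 13776 genes tested. Neither gene shares exons with another coding gene in the annotation.

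**Figure D4:**
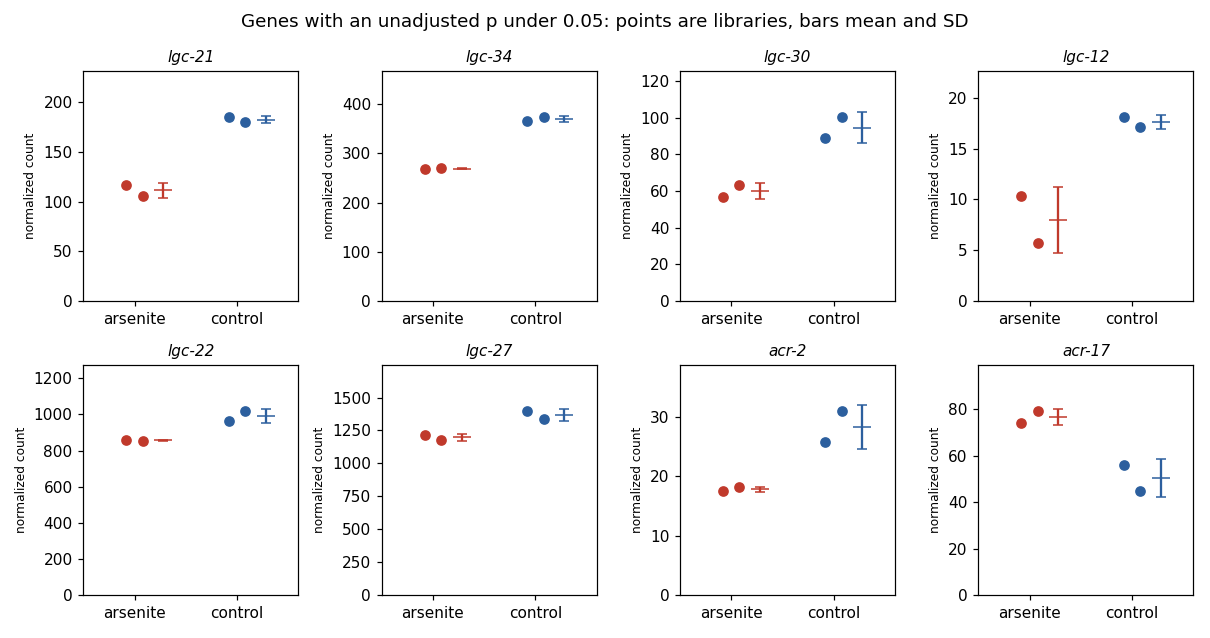
Normalized counts of the 8 genes with an unadjusted p under 0.05, with points for libraries, bars for mean and SD (n = 2), arsenite on the left of each panel and control on the right. In 7 genes both arsenite libraries lie below both controls, and in acr-17 they lie above. Over all genes tested, both lay below in 19.1% and above in 17.1%. The 8 genes were chosen by p from these same libraries, so their separation adds no support.

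Another 4 lgc genes had an unadjusted p under 0.05 and passed no adjusted test, all with lower values with arsenite. For lgc-30, on IV from 924882 to 939736, normalized counts were 56.7 and 63.1 with arsenite, against 88.7 and 100.5 without it. Its log2 fold change was -0.65 (SE 0.18), and its adjusted p was 0.377 in the quasi-likelihood test and 0.0839 in the exact test of edgeR. For lgc-12, on III from 7562172 to 7564558, the normalized counts were 10.3 and 5.73 with arsenite, against 18.1 and 17.1 without it. The log2 fold change was -1.14 (SE 0.41), with an adjusted p of 0.522 in the quasi-likelihood test of edgeR. At so few reads its interval ran from -2.05 to -0.22, and its exons overlap those of ttr-8 on the opposite strand, which the libraries do not separate.

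Of the 4 genes at 5 RPKM or more, lgc-34 is described above. For lgc-22, on IV from 4301306 to 4304448, normalized counts were 858.5 and 854.1 with arsenite, against 965.0 and 1019 without it, a log2 fold change of -0.21 (SE 0.08). For lgc-27, on II from 4649085 to 4653283, they were 1218 and 1177 with arsenite, against 1397 and 1336 without it, a log2 fold change of -0.19 (SE 0.07). Their adjusted p were 0.545 for lgc-22 and 0.557 for lgc-27 in the quasi-likelihood test of edgeR. In both genes the groups stood apart. The count of lgc-27 is the sum over its 2 transcripts, each with nearly the same reads (601 and 579 in arsenite replicate 1), so a read shared by both entered it more than once. With its most counted transcript alone the log2 fold change was -0.18. The exons of lgc-27 overlap those of fut-6 on the opposite strand. The remaining gene of the 4, lgc-54, had 272.4 and 407.9 normalized counts with arsenite, against 282.3 and 339.9 without it. Here the arsenite libraries lay on both sides of the controls, and the fitted log2 fold change of 0.14 (SE 0.18) became -0.19 without arsenite replicate 2. Exons of lgc-54 overlap with T15B7.1 and hpo-8 on the opposite strand.

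The levamisole receptor of body wall muscle, formed by the products of unc-29, unc-38, unc-63, lev-1 and lev-8, showed no difference past a test in any subunit. For unc-29 the normalized counts were 105.3 and 123.2 with arsenite, against 123.0 and 129.3 without it. For unc-63 they were 187.8 and 215.9 with arsenite, against 227.0 and 212.7 without it. The groups overlapped in both, with log2 fold changes of -0.14 (95% interval -0.49 to 0.21) and -0.12 (-0.41 to 0.17). In unc-38 the counts were 104.2 and 86.0 with arsenite, against 140.2 and 100.5 without it, a log2 fold change of -0.35 (-0.80 to 0.10). That value rests largely on control replicate 1, since it was -0.085 without that library, and exons of unc-38 overlap those of F21F3.4 on the opposite strand. The non-alpha subunit lev-1 had 196.1 and 172.9 with arsenite, against 200.3 and 164.6 without it, and lev-8 had 175.4 and 147.1 with arsenite, against 164.0 and 174.2 without it. Their log2 fold changes were 0.01 (-0.32 to 0.34) and -0.07 (-0.39 to 0.25). Adjusted p of the 5 subunits ran from 0.798 to 0.994 in the quasi-likelihood test of edgeR. The median of the 5 log2 fold changes was -0.12. Both arsenite libraries lay below both controls in 0 of the 5, against 19.1% of all genes tested, too few genes to set apart from that share.

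**Figure D5:**
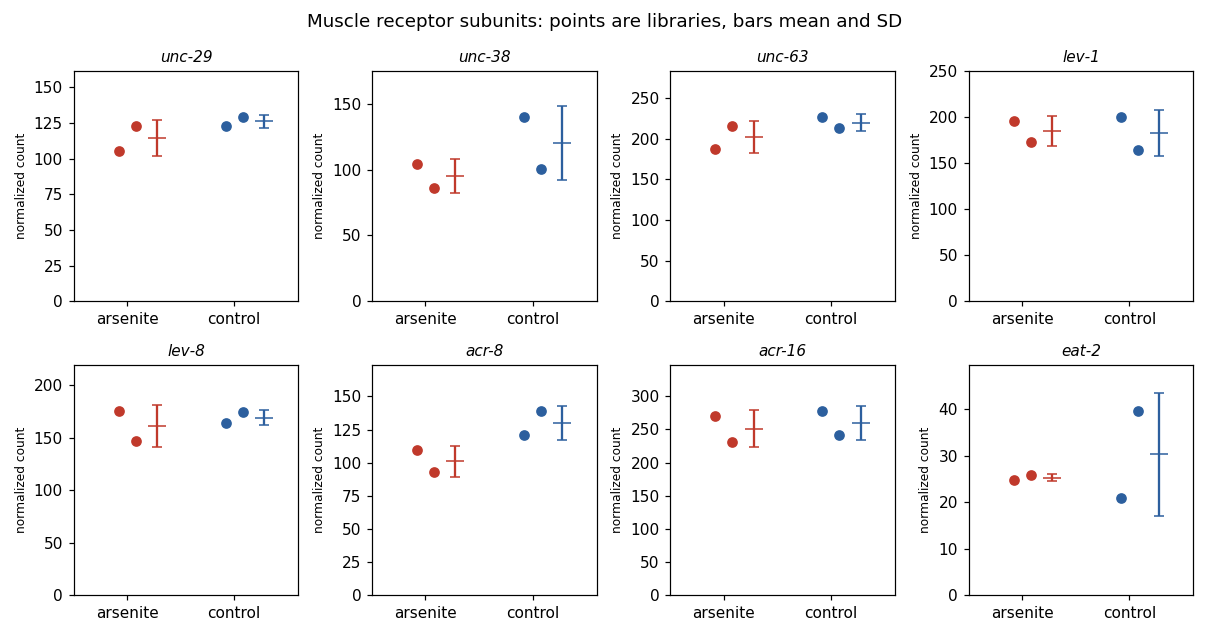
Normalized counts of 8 subunit genes of body wall and pharyngeal muscle, with points for libraries, bars for mean and SD (n = 2), arsenite on the left of each panel and control on the right. Arsenite and control libraries overlap in 7 of the 8 genes, the exception being acr-8. Over all genes tested, both arsenite libraries lay below both controls in 19.1% and above both in 17.1%.

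The gene acr-8 codes for a subunit close to lev-8. Its normalized counts were 109.4 and 92.7 with arsenite, against 121.1 and 139.0 without it, so that the groups stood apart, with a log2 fold change of -0.36 (SE 0.17) and an adjusted p of 0.693 in the quasi-likelihood test of edgeR. Its exons overlap those of cdk-11.2. The nicotine-sensitive receptor of body wall muscle is formed by ACR-16 alone. Its gene acr-16, on V from 8561216 to 8564345, had 270.4 and 231.2 normalized counts with arsenite, against 277.5 and 241.6 without it. These overlap, with a log2 fold change of -0.05 (95% interval -0.35 to 0.24), and exons of acr-16 overlap those of F25G6.8. The pharyngeal subunit gene eat-2, mutants of which pump slowly and live long, had 24.8 and 25.8 normalized counts with arsenite, against 20.98 and 39.55 without it. The control libraries lay on both sides of the arsenite libraries, and the log2 fold change of -0.24 (-0.99 to 0.51) was 0.27 without control replicate 2 and -0.64 without control replicate 1. Over the ACR-16 class, 8 of 9 tested genes had a fitted level below control, against 48.2% of all genes tested. The median log2 fold change of the class was -0.19. Of the 9, 0 had an unadjusted p under 0.05 in the quasi-likelihood test, against 5.05% of all genes lower and 2.16% higher.

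Motor neurons carry a further receptor with the products of acr-2, acr-3 and acr-12 beside those of unc-38 and unc-63. For acr-2, on X from 6702549 to 6709308, normalized counts were 17.5 and 18.2 with arsenite, against 25.8 and 31.0 without it. The groups stood apart, with a log2 fold change of -0.66 (SE 0.29). It had an adjusted p of 0.692 in the quasi-likelihood test of edgeR, and its 95% interval ended just below 0. Its neighbour acr-3 had 7.22 and 10.5 with arsenite, against 10.5 and 7.48 without it, and its log2 fold change of -0.02 had a standard error of 0.46. For acr-12 the counts were 57.8 and 72.6 with arsenite, against 67.7 and 75.9 without it, a log2 fold change of -0.13 (-0.58 to 0.31). The groups overlapped in both acr-3 and acr-12. Whether acr-2 differed from them in its response was not tested.

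In the DEG-3 class acr-17, for which no role is given here, was the single gene of the set with a higher value and an unadjusted p under 0.05. It lies on V from 2608652 to 2615262. Its normalized counts were 74.3 and 79.3 with arsenite, against 56.3 and 44.9 without it, and the groups stood apart. These sum 2 transcripts with nearly the same reads, 35 and 37 in arsenite replicate 1 and 19 and 23 in control replicate 2, so shared reads entered more than once. The log2 fold change was 0.60 (SE 0.20, 95% interval 0.15 to 1.05). Its adjusted p was 0.496 in the quasi-likelihood test and 0.21 in the exact test of edgeR. With the most counted transcript alone the log2 fold change was 0.57, with an adjusted p of 0.696 in the quasi-likelihood test of edgeR. Without control replicate 2 it was 0.45 and without control replicate 1 it was 0.77. The class founders deg-3 and des-2 code for partner subunits of a choline-activated channel of sensory neurons. For deg-3 normalized counts were 38.2 and 45.9 with arsenite, against 60.1 and 56.7 without it, a log2 fold change of -0.47 (SE 0.21) with an adjusted p of 0.693 in the quasi-likelihood test of edgeR. For des-2 they were 71.2 and 75.5 with arsenite, against 85.8 and 66.3 without it, a log2 fold change of -0.06 (SE 0.20). The groups stood apart in deg-3, whose exons overlap those of grl-3, and overlapped in des-2. The betaine receptor gene acr-23 had 4.13 and 10.5 normalized counts with arsenite, against 10.5 and 12.8 without it, too few reads to fix a direction (log2 fold change -0.63, 95% interval -1.74 to 0.48).

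All 7 lgc channels listed here for a known ligand had a fitted level below control, against 48.2% of all genes tested. Their median log2 fold change was -0.25. At an unadjusted p under 0.05 the quasi-likelihood test of edgeR passed 0 of them, against 5.05% of all genes lower and 2.16% higher. The tyramine-gated chloride channel gene lgc-55, on V from 20023046 to 20036667, had 107.3 and 95.5 normalized counts with arsenite, against 136.4 and 116.5 without it. Its groups stood apart, with a log2 fold change of -0.32 (SE 0.17) and an adjusted p of 0.752 in the quasi-likelihood test of edgeR. For lgc-35, a cation channel opened by GABA, the normalized counts were 20.6 and 19.1 with arsenite, against 37.2 and 24.6 without it, a log2 fold change of -0.65 that was -0.31 without control replicate 1. For lgc-46, an anion channel opened by acetylcholine, they were 32.0 and 29.6 with arsenite, against 37.2 and 33.1 without it. The groups stood apart in both lgc-35 and lgc-46. The serotonin-gated channel gene lgc-50 had 84.6 and 61.1 with arsenite, against 88.7 and 84.4 without it, and its exons overlap those of trd-1. The dopamine-gated channel gene lgc-53 had 32.0 and 36.3 with arsenite, against 49.6 and 27.8 without it. The groups overlapped in both lgc-50 and lgc-53, with log2 fold changes of -0.25 (SE 0.20) for lgc-50 and -0.19 (SE 0.30) for lgc-53. That of lgc-53 was 0.30 without control replicate 1 and -0.53 without control replicate 2.

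Among the other 46 lgc genes, 28 were tested. Of these, 22 had a fitted level below control (78.6%), against 48.2% of all genes tested. In 15 (53.6%) both arsenite libraries lay below both controls, against 19.1% of all genes tested. In 1, lgc-33, both lay above, against 17.1%. Log2 fold changes ran from -1.14 (lgc-12) to 0.30 (lgc-1), with a median of -0.20. The 21 untested genes of the whole set, 18 of them named lgc, included 9 with at most 3 reads in every library. In 5 of the 21 the arsenite libraries were both higher than the controls and in 2 both lower, on counts too low to read a direction from. The gene lgc-14 is an example, with 4 and 1 reads in arsenite replicates 1 and 2 and 0 reads in both controls.

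Other genes of cholinergic transmission and other Cys-loop channels were measured in the same libraries. Of 7 tested genes of acetylcholine synthesis, release and breakdown, 6 had a fitted level below control, against 48.2% of all genes. At an unadjusted p under 0.05 in the quasi-likelihood test 2 were lower, against 5.05% of all genes, and 0 higher, against 2.16%. The genes were ace-3, an acetylcholinesterase, with a log2 fold change of -0.37 (SE 0.13), and unc-17, the vesicular acetylcholine transporter. The exact and likelihood ratio tests called 1 of the 7 lower, unc-17, against 0.617% and 0.719% of all genes, and DESeq2 called 0. Normalized counts of unc-17 were 252.8 and 207.3 with arsenite, against 322.3 and 320.7 without it, a log2 fold change of -0.49 (SE 0.13). The adjusted p was 0.0468 in the exact test and 0.325 in the quasi-likelihood test of edgeR. Of 14 tested genes of receptor assembly and clustering, 10 had a fitted level below control, against 48.2% of all genes, with a median log2 fold change of -0.073. The quasi-likelihood and exact tests called 0 of them, with 1 lower at an unadjusted p under 0.05 in the quasi-likelihood test, against 5.05% of all genes. That gene was madd-4, an organiser of the neuromuscular synapse, with a log2 fold change of -0.33 (SE 0.09) and an adjusted p of 0.0709 in the exact test of edgeR. The chaperone of acetylcholine receptors, ric-3, had a log2 fold change of -0.12 (SE 0.15). The 3 genes of muscarinic receptors, which signal through G proteins, had a median of -0.12, with 0 called by either test. In the quasi-likelihood test 1 of them (gar-2) was lower at an unadjusted p under 0.05, against 5.05% of all genes. Of 19 other Cys-loop channel genes, gated among others by GABA and glutamate, 18 had a fitted level below control, against 48.2% of all genes. Their median was -0.24, with 5 lower and 0 higher at an unadjusted p under 0.05 in the quasi-likelihood test, against 5.05% and 2.16% of all genes, and 0 called by either test. An example is unc-49, the inhibitory GABA receptor of body wall muscle, with 2010 and 2002 normalized counts with arsenite, against 2378 and 2310 without it, a log2 fold change of -0.22 (SE 0.07). Its adjusted p was 0.409 in the quasi-likelihood test of edgeR. These lists were chosen with earlier results of these data known, and their medians stand beside 0.0055 for all genes tested.

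Markers of neurons and muscle, chosen with earlier results known, had mostly negative fitted log2 fold changes, and those of intestine and germline did not. The share of all genes tested with a fitted level below control was 48.2%. Of 12 measured markers of neurons, 11 had a fitted level below control, with a median log2 fold change of -0.23, and their summed normalized counts were 23490 and 22536 with arsenite, against 26433 and 24609 without it. The 10 markers of body wall muscle had 9 below control and a median of -0.12, with sums of 222701 and 213550 with arsenite, against 234899 and 238419 without it. All 6 measured markers of pharyngeal muscle were below control, with a median of -0.27 and sums of 7702 and 7446 with arsenite, against 9298 and 9295 without it. Intestinal markers were below control in 4 of 8, with a median of 0.011 and sums of 6446317 and 7472621 with arsenite, against 5935731 and 6736956 without it. Germline and embryo markers were below control in 0 of 8, with a median of 0.075 and sums of 276446 and 290500 with arsenite, against 255171 and 279483 without it. The groups overlapped in the sums of intestine and of germline and embryo, and stood apart in the other tissues. At an unadjusted p under 0.05 in the quasi-likelihood test, against 5.05% of all genes, 6 neuron markers, 2 of body wall muscle, 4 of pharyngeal muscle, 1 of intestine and 0 of germline and embryo were lower. In that test 1 germline and embryo marker and 0 of the others were higher, against 2.16% of all genes. After adjustment the quasi-likelihood test called 0 markers, against 0% of all genes. The exact, likelihood ratio and DESeq2 tests each called 1, in pharyngeal muscle and lower with arsenite. The shares of all genes called lower were 0.617% (exact), 0.719% (likelihood ratio) and 0.0805% (DESeq2). None of these marker lists had a gene at 0 in all libraries. The part of these tissue markers in the lower values of the receptor and channel genes was not tested.

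By structure of the locus and by chromosome the medians were as follows. The 20 tested genes whose exons overlap those of another coding gene had a median log2 fold change of -0.21, with 16 below control. The 41 tested genes without such overlap had a median of -0.19, with 35 below control. Of all genes tested, 48.2% were below control. On X, 14 of the 16 tested genes of the set were below control with a median of -0.17, where all 1993 genes tested on X had a median of -0.046. On the 5 autosomes, the medians of the set ran from -0.31 (III) to -0.14 (I), where those of all genes tested ran from -0.0062 (V) to 0.025 (I).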

How the data were processed

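The authors mapped single reads with Bowtie to the genome and an exon junction database, kept uniquely mapped reads and assigned them by RefSeq. CASAVA and WBcel235 are named in the submitters' processing notes. Software versions: not given in the sources used here. Files deposited by the authors hold raw read counts and RPKM values per transcript and per gene. A gene's count equals the sum over its transcripts (19912 of 19912 genes), and gene RPKM divides it by their summed length, so reads shared by transcripts can enter more than once (9 genes of the set have several). The kit does not mark strand.

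The test on gene counts used edgeR 4.0.16 in R 4.3.3, with filterByExpr (minimum count 10, minimum total 15), TMM, glmQLFit (prior count 0.125), glmQLFTest, condition as the only term, Benjamini-Hochberg adjustment at 0.05. Normalized counts are counts over TMM-scaled library size times its mean, and log2 ratios per library use a pseudocount of 1. The SE of a log2 fold change is its size divided by the root of the F statistic. Depth, 30583832 to 35218389 reads, limits precision: standard errors of log2 fold changes of tested genes ran from 0.073 to 0.51. Replicates differed by more than sampling noise (chi-square per gene 9.89 with arsenite, 16.1 in controls). Alternatives were the exact and likelihood ratio tests, DESeq2 1.42.0, other scalings, filters, a replicate block, a loess length correction (span 0.5), the most counted transcript and each library left out. Coordinates are RefSeq's, exon overlaps Ensembl 115's (82 of 82 genes matched in both), both on WBcel235. No protein or promoter sequence was used here.

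Genes named are those with a known role listed in advance, any past an adjusted test, up to 5 a direction with the smallest p under 0.05, the 5 highest in RPKM and those at 0 reads. lgc-33, lgc-14, lgc-1, unc-17, ric-3, ace-3, madd-4, gar-2, unc-49 and the ends of class ranges were named after their values were seen. acr-22, cha-1, unc-74, lev-10 and myo-1 were listed but not analysed here. Members and lists were chosen with earlier results of these data known.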

Additional observations from a re-analysis of the deposited data

How the results depend on the processing

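The 27 tested genes named by rule had 0 calls in the quasi-likelihood test of all 4 libraries. The exact and likelihood ratio tests each called 2 genes of the set lower (lgc-21 and lgc-34), a fit with no filter on low counts 1 (lgc-21, adjusted p = 0.0295 in the quasi-likelihood test of edgeR), and DESeq2, RLE size factors, library size only, a stricter filter (50 reads in 2 libraries), the most counted transcript and the length correction called 0. With 1 library left out, which leaves 1 library in a group, the log2 fold change of lgc-21 ran from -0.78 to -0.64 in the quasi-likelihood fit. The exact test with 1 library left out, an alternative chosen after seeing the data, called 0 to 1 lower. At an unadjusted p under 0.05 the 7 lower genes (against 5.05% of all genes) became 14 with the likelihood ratio test (against 5.64%). They became 3 with DESeq2 (against 1.51%). With library size only they became 12, with no filter 11 and with the length correction 4. The share of all genes is not given here for these 3 settings, so their counts cannot be set beside it. The 1 higher gene (against 2.16%) became 0 with DESeq2 (against 0.907%). The median log2 fold change of -0.19 was -0.24 with library size only, -0.15 with the length correction and -0.23 to -0.16 with 1 library left out. The cause of these changes was not tested.

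Directions turned for lev-1 with library size only (-0.030) and for acr-3 with the length correction (0.025, and 0.022 with the replicate block as well). With 1 library left out they turned for acr-3 (-0.32 to 0.21), acr-12 (-0.31 to 0.022), acr-16 (-0.17 to 0.057), des-2 (-0.23 to 0.14), eat-2 (-0.64 to 0.27), lev-1 (-0.12 to 0.16), lev-8 (-0.20 to 0.054), lgc-53 (-0.53 to 0.30) and lgc-54 (-0.19 to 0.40). With the replicate block the quasi-likelihood test called 1 gene lower (lgc-21, adjusted p = 0.0468) and 0 higher, and 0 of either with the length correction as well, where the median was -0.15. The numbers are not known to pair the libraries: across genes, differences between replicates 1 and 2 correlated with r = 0.049 between the groups. At these depths 35 of the 61 tested genes had mean normalized counts under 100, and 53 had intervals that span 0.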
